A study of Mus musculus with 10 samples.

Results

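Snx5 and 9 other genes that lie around Nkx2-2 on mouse chromosome 2 were followed probe set by probe set in the caudal brainstem and rostral cord from Nkx2.2-/- and wild-type pups. The 10 genes are Snx5, Rbbp9, Dtd1, Dstn, Rrbp1, Xrn2, Pax1, Bfsp1, Macrod2 and Cd93. Every probe set whose platform symbol named one of them was taken, which gave 28 of the 45101 probe sets on the array, and 0 of the 28 carried a second symbol. The genes were chosen with differences between these same 2 genotypes in view, so those differences are a description. Whether limma called them in the fit over all probe sets is stated beside them, but the choice of genes already used these values and the calls support nothing. Of the genes, 7 had several probe sets, from 2 for Dtd1 and Pax1 to 5 for Snx5 and Cd93, and 3 genes had 1 each.

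The mutant group was 5 mice with the genotype Nkx2.2-/- (replicates 11, 12, 22, 29 and 43), and the control group was 5 wild-type littermates (WT, replicates 14, 15, 16, 18 and 21). Both groups were of strain C57BL/6 by the labels and aged 1.5 to 2 days, with no other allele or agent named. RNA from pons, medulla and rostral spinal cord, taken from sections of 20 µm, went onto 1 array per mouse. How the mutant allele was made, how many generations it was crossed to C57BL/6 and which mice shared a litter were not analysed here, and values in a group are listed below in the order of these replicate numbers.

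Nkx2-2 is a homeodomain transcription factor of ventral neural progenitors and of the oligodendrocyte lineage. Targeted alleles are commonly made in embryonic stem cells of one inbred strain and then crossed onto another. DNA next to the targeted gene tends to travel with it through such crosses, so that genes flanking the allele can keep the sequence of the stem cell strain in mutants while wild-type littermates carry the other sequence there. A short oligonucleotide probe reads such a gene less well where a sequence difference lies under it, and a probe set elsewhere in the same transcript need not be touched. That is why each probe set is described on its own here.

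The values are log2 expression values made by RMA. The median of an array was 5.07 to 5.12, and pairs of arrays correlated at 0.973 to 0.996 across the 45037 probe sets that are not controls, a description of arrays sharing one normalization. Nkx2.2-/- replicate 43 and WT replicate 14 stood apart in RNA controls: the 3 prime Gapdh probe set exceeded the 5 prime one by 3.78 in Nkx2.2-/- replicate 43 and by 2.13 in WT replicate 14, against -0.32 to 0.13 on the other arrays. Neuronal genes were bright, with a mean log2 level over 5 markers of 9.91 to 10.3 in Nkx2.2-/- mice and 9.97 to 10.2 in WT mice, and 7 measured Hox genes of hindbrain and cord had a mean level of 6.38 to 7.31 in Nkx2.2-/- mice and 6.26 to 7.17 in WT mice. Nkx2-2 itself had 1 probe set, at 4.51 ± 0.207 in Nkx2.2-/- mice and 6.55 ± 0.186 in WT mice (SD, n = 5 each), a difference of -2.05 (limma, Benjamini-Hochberg adjusted p = 7.2e-05; exact two-sided permutation p = 0.00794, the smallest that 5 against 5 can give). Whether that probe set lies in a part of the gene that the mutant allele alters was not analysed here.

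Differences are Nkx2.2-/- minus WT on the log2 scale, with 95% intervals from limma. A probe set is called where limma's Benjamini-Hochberg adjusted p over all 45037 probe sets is under 0.05. In the order of the chromosome, counted in genes that the array measures, Macrod2, Bfsp1, Dstn, Rrbp1, Snx5, Rbbp9, Dtd1 and Xrn2 stand 34, 29, 28, 27, 25, 17, 13 and 2 genes to the lower-coordinate side of Nkx2-2. Pax1 and Cd93 stand 1 and 6 genes to the other side.

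Promoter sequences of 3 genes are shown, namely Snx5, which had the largest difference among the 10 genes, Xrn2, the nearest of them on its side, and Nkx2-2. They are RefSeq sequences of assembly GRCm38.p6, reference sequence of C57BL/6J, from 250 bases before to 50 bases after the gene's start, 5 prime to 3 prime on the gene's strand. Capitals mark AAGTG or its reverse complement CACTT, the core that homeodomains of the NK2 class are known to bind.
Snx5: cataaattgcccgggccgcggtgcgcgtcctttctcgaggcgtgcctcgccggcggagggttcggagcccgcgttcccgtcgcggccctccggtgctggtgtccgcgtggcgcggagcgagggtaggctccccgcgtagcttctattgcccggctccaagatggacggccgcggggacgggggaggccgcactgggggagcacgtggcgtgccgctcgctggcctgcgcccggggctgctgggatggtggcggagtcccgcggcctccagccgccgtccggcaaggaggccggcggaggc
Xrn2: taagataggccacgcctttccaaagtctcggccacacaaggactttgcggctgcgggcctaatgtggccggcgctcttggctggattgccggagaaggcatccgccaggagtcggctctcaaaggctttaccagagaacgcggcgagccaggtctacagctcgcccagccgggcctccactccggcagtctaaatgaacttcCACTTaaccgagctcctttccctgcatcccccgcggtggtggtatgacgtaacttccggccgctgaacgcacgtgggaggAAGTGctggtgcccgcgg
Nkx2-2: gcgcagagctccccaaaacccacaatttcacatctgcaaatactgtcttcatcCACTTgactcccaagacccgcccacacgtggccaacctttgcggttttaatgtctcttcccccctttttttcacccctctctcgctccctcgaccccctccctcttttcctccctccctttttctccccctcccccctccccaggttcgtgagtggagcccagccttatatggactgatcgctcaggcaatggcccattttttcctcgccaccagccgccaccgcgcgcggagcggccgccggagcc
The Snx5 stretch is chr2:144270523-144270822 on the minus strand, that of Xrn2 is chr2:147012749-147013048 on the plus strand and that of Nkx2-2 is chr2:147186353-147186652 on the minus strand. AAGTG was searched on both strands and occurs in 46.4% of 32851 promoters of that length, and the longer TNAAGTGG, which contains it, in 3.21%. Snx5 had 0 matches to either motif, Xrn2 had 2 to the core, starting 48 bases before and 33 bases into the transcribed part, and 1 of them was also the longer motif. Nkx2-2 had 1 match, to both. Of the 9 genes with a promoter in the table, Xrn2 and Bfsp1 held the core. Cd93 had no entry.

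Snx5 is a sorting nexin that bends endosomal membrane into tubules and helps return receptors from endosomes to the trans-Golgi network. In the Nkx2.2-/- mice, 3 of its 5 probe sets were lower in sign, 1 of them called, and 2 were higher in sign. Of the higher ones, 1417646_a_at was at 0.0042 and changed sign in 4 of 16 other settings of the analysis. Probe set 1417648_s_at read 6.06, 6.20, 6.05, 6.05 and 6.17 in Nkx2.2-/- mice, against 6.69, 6.71, 6.74, 6.84 and 6.61 in WT mice. The highest Nkx2.2-/- mouse lay 0.41 below the lowest WT mouse, and the spread inside each group was far narrower than the gap between their means, 6.10 ± 0.0744 in Nkx2.2-/- mice and 6.72 ± 0.0834 in WT mice (SD, n = 5 each). The difference was -0.61 (95% interval -0.73 to -0.50), or 1.53-fold lower. It was the only 1 of the 28 that was called, where 0.0511% of all probe sets were called lower and 0% higher; the choice of the genes used this contrast, so nothing is read from that count.

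A second Snx5 probe set, 1417647_at, also kept the genotypes apart, by a margin of 0.025. It read 6.21, 6.40, 6.21, 6.32 and 6.42 in Nkx2.2-/- mice, against 6.57, 6.47, 6.45, 6.44 and 6.62 in WT mice, a difference of -0.20 (95% interval -0.32 to -0.074). That is 1.15-fold lower, and it was not called. The dimmest one, 1437074_at, had means of 4.18 ± 0.125 in Nkx2.2-/- mice and 4.34 ± 0.0655 in WT mice (SD, n = 5 each), above 6.79% and 13.9% of all probe sets. Its difference was -0.16 (95% interval -0.30 to -0.028), and the groups overlapped through Nkx2.2-/- replicate 22 at 4.35.

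The brightest Snx5 probe set did not share this direction. Probe set 1448791_at read 6.89, 6.95, 6.46, 7.02 and 7.33 in Nkx2.2-/- mice, against 6.83, 6.49, 6.85, 6.75 and 6.64 in WT mice, a difference of 0.22 (95% interval -0.084 to 0.52). In 1448791_at, 4 of the 5 Nkx2.2-/- mice were above every WT mouse and replicate 22 was below all of them. The difference was 0.34 without replicate 22 and 0.12 without replicate 43. Probe set 1417646_a_at read 6.20, 6.28, 5.89, 6.21 and 6.64 in Nkx2.2-/- mice, against 6.23, 6.10, 6.37, 6.25 and 6.24 in WT mice, a difference of 0.0042 (95% interval -0.24 to 0.25). Nkx2.2-/- replicate 22 was the lowest and replicate 43 the highest of all 10 mice in both, whereas in 1417648_s_at the 5 mutants lay within a narrow range, 6.05 to 6.20.

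The lowest and the highest of the 5 Snx5 differences can be set side by side within each array. There, 1417648_s_at minus 1448791_at was -0.84, -0.75, -0.41, -0.97 and -1.16 in Nkx2.2-/- mice, against -0.14, 0.23, -0.11, 0.085 and -0.036 in WT mice. The means were -0.82 ± 0.281 in Nkx2.2-/- mice and 0.0071 ± 0.151 in WT mice (SD, n = 5 each). Since the pair was taken for its difference, this restates the values above mouse by mouse, and it does not say which probe set follows the transcript. Whether a sequence difference between strains lies under any of these probes was not tested. The span of the 5 differences was 0.83, and the median span over the 9010 genes with several probe sets was 0.076; Snx5 was chosen from this contrast, so nothing is read from that. The suffix of 1417648_s_at marks a probe set whose probes may be shared by more than 1 transcript, and 9 of the 28 carry a suffix of that kind or one that marks variants of a transcript or possible cross-hybridisation.

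**Figure D1:**
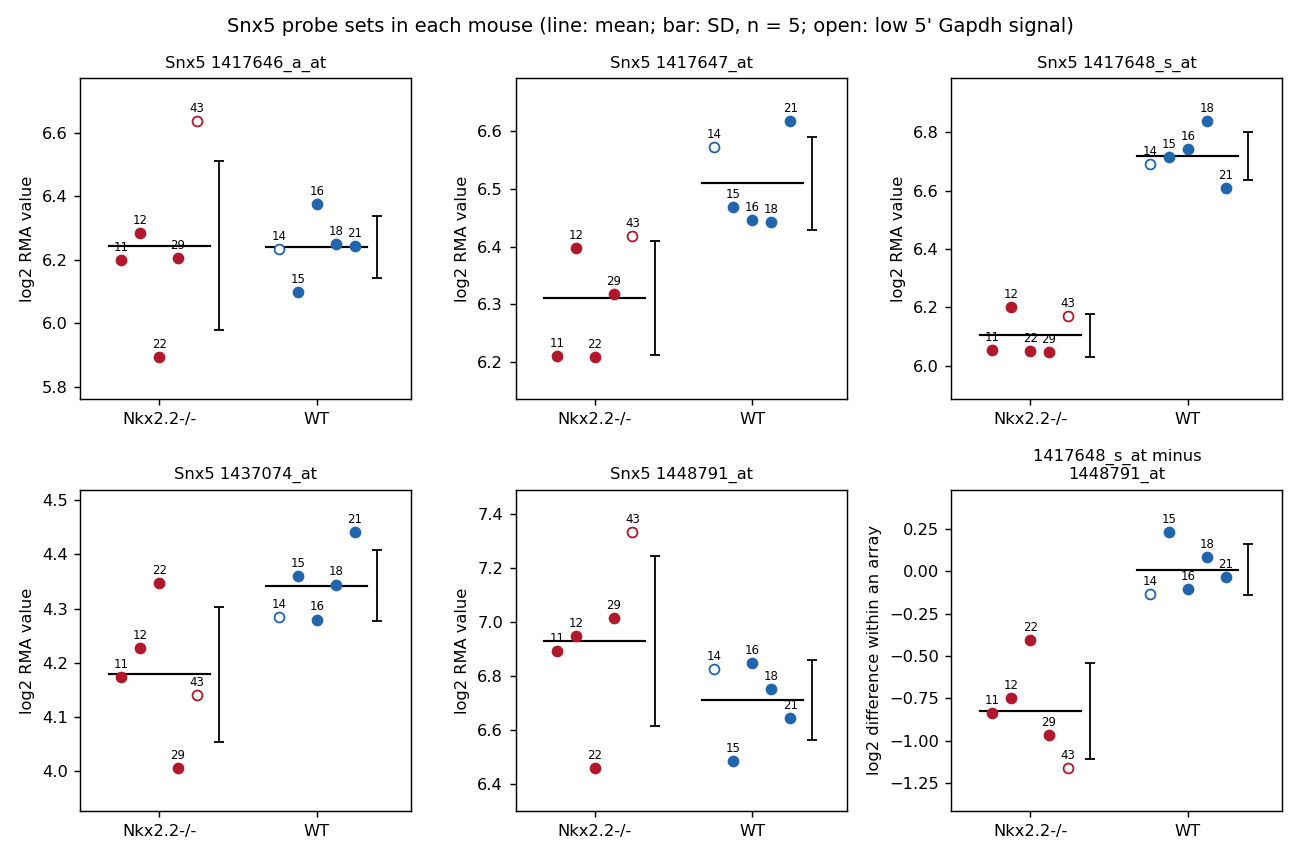
Log2 RMA values of the 5 Snx5 probe sets in each mouse, labelled by replicate, with Nkx2.2-/- mice left of WT mice, and in the last panel the difference between 1417648_s_at and 1448791_at within each array. Lines are means, bars are SD over 5 mice, and open symbols are the 2 arrays of low 5 prime Gapdh signal; in 1417648_s_at the groups are 0.41 apart, and in 1448791_at they overlap through Nkx2.2-/- replicate 22 at 6.46.

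Markers of oligodendrocytes were lower in Nkx2.2-/- mice, as were all 23 called probe sets of the array, 1417648_s_at among them. All 6 measured markers (Mbp, Mag, Mog, Mobp, Cnp and Cldn11) were lower in sign. Of these, 5 were called, where 0.0715% of all genes were called lower. Their mean log2 level was 6.04 to 6.25 in Nkx2.2-/- mice and 7.002 to 7.34 in WT mice. Markers of their precursors were higher in sign in 5 of 5, with 0 called, at 7.58 to 7.85 in Nkx2.2-/- mice and 7.503 to 7.69 in WT mice. Markers of neurons, of astrocytes and of microglia and macrophages were lower in sign in 2 of 5, 3 of 4 and 3 of 4, with 0 called. The part of these cells in the Snx5 values was not tested. In bulk tissue, fewer cells of a type and less RNA per cell cannot be told apart. With Nkx2.2-/- replicate 43 and WT replicate 14 left out, the difference of 1417648_s_at was -0.64 and that of 1448791_at was 0.15. That of 1417646_a_at was then -0.096.

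Rbbp9, a serine hydrolase that binds the retinoblastoma protein, was lower in 4 of the 5 Nkx2.2-/- mice than in any WT mouse. Its 1 probe set, 1416174_at, read 5.27, 5.26, 5.02, 5.45 and 5.72 in Nkx2.2-/- mice, against 5.84, 5.57, 5.66, 5.68 and 5.72 in WT mice. Nkx2.2-/- replicate 43 lay inside the WT range. The means were 5.35 ± 0.259 in Nkx2.2-/- mice and 5.69 ± 0.0954 in WT mice (SD, n = 5 each), a difference of -0.35 (95% interval -0.59 to -0.11), or 1.27-fold lower, which was not called. Without replicate 43 the difference was -0.44, and without replicate 22 it was -0.27.

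Dtd1, which removes D-amino acids wrongly attached to tRNA, stands between Rbbp9 and Nkx2-2. Its bright probe set 1451040_at read 8.12, 8.38, 8.57, 8.60 and 8.30 in Nkx2.2-/- mice, against 8.66, 8.51, 8.49, 8.52 and 8.64 in WT mice. There, 3 of the mutants were below every WT mouse and the other two were inside the WT range, giving a difference of -0.17 (95% interval -0.36 to 0.022), which was -0.10 without Nkx2.2-/- replicate 11. Probe set 1447677_x_at, near the middle of all probe sets in brightness, had a difference of 0.035 (95% interval -0.075 to 0.14).

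Dstn encodes destrin, which severs and depolymerises actin filaments, and had the largest difference after Snx5, with a wide interval. Its 1 probe set, 1417124_at, read 9.21, 9.35, 8.19, 9.39 and 9.62 in Nkx2.2-/- mice, against 9.69, 9.46, 10.19, 9.81 and 9.08 in WT mice. The groups overlapped, with WT replicate 21 below 4 of the mutants. The means were 9.15 ± 0.555 in Nkx2.2-/- mice and 9.65 ± 0.415 in WT mice (SD, n = 5 each), a difference of -0.50 (95% interval -1.09 to 0.10). Without Nkx2.2-/- replicate 22 the difference was -0.26.

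Rrbp1, a ribosome-binding protein of the endoplasmic reticulum membrane, had 4 probe sets that split evenly in sign. Probe set 1436660_at read 4.91, 5.01, 4.91, 4.82 and 4.83 in Nkx2.2-/- mice, against 5.16, 5.06, 5.10, 5.27 and 4.98 in WT mice, a difference of -0.22 (95% interval -0.35 to -0.087). The groups overlapped only through Nkx2.2-/- replicate 12 and WT replicate 21. The brightest, 1452767_at, had means of 7.81 ± 0.171 in Nkx2.2-/- mice and 8.005 ± 0.123 in WT mice (SD, n = 5 each), a difference of -0.20 (95% interval -0.39 to -0.0078). In the opposite direction, 1449221_a_at had a difference of 0.11 (95% interval -0.0009 to 0.23) and 1426123_a_at one of 0.072 (95% interval -0.0024 to 0.15). That last probe set kept the genotypes apart by 0.012, at 5.20 ± 0.00883 in Nkx2.2-/- mice and 5.13 ± 0.0476 in WT mice (SD, n = 5 each).

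Bfsp1 encodes filensin of the beaded filaments of lens fibres, and Macrod2 an enzyme that removes ADP-ribose from proteins; they are the farthest of the 10 genes on their side. The 1 probe set of Bfsp1 read 4.90, 4.90, 4.93, 4.96 and 4.79 in Nkx2.2-/- mice, against 4.79, 4.76, 4.83, 4.85 and 4.72 in WT mice, a difference of 0.10 (95% interval 0.011 to 0.19). Of the mutants, 4 were above every WT mouse by this measure, and replicate 43 was not. The level was low, with group means above 42.2% of probe sets in Nkx2.2-/- mice and 37.6% in WT mice, and 4 lens genes were at a mean level of 4.48 to 4.67 in Nkx2.2-/- mice and 4.53 to 4.59 in WT mice. For Macrod2, 1432431_s_at was the brightest of 4, at 5.74 ± 0.0767 in Nkx2.2-/- mice and 5.89 ± 0.132 in WT mice (SD, n = 5 each), a difference of -0.15 (95% interval -0.29 to -0.0077). The other 3 Macrod2 probe sets had differences from -0.091 to 0.039, and every one of the 4 overlapped between groups.

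Xrn2, the nuclear exoribonuclease that degrades RNA from its 5 prime end and acts in transcription termination, is the nearest of the 10 genes on the lower-coordinate side and had no probe set that separated the groups. The brightest, 1450777_at, read 6.01, 5.93, 5.64, 6.13 and 6.41 in Nkx2.2-/- mice, against 6.04, 5.92, 5.91, 5.99 and 5.81 in WT mice, a difference of 0.090 (95% interval -0.17 to 0.35). As in Snx5 1448791_at and Rbbp9, replicate 22 was the lowest Nkx2.2-/- mouse and replicate 43 the highest. Without replicate 22 the difference was 0.19, and without replicate 43 it changed sign, at -0.0057. Replicate 43 and WT replicate 14 are the arrays of low 5 prime Gapdh signal, and without both the difference was 0.021. The part of RNA quality in this order of mice was not tested. The other two Xrn2 probe sets had differences of -0.12 (95% interval -0.34 to 0.11) and -0.024 (95% interval -0.11 to 0.065).

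Pax1, a paired box transcription factor of the sclerotome that is not a usual gene of neural tissue, is the next measured gene to Nkx2-2 on the other side and was higher in every Nkx2.2-/- mouse by both of its probe sets. Probe set 1443476_at read 4.97, 5.03, 4.98, 4.92 and 4.96 in Nkx2.2-/- mice, against 4.79, 4.88, 4.75, 4.91 and 4.73 in WT mice, a difference of 0.16 (95% interval 0.060 to 0.26). Probe set 1449359_at read 4.83, 4.95, 4.94, 4.75 and 4.81 in Nkx2.2-/- mice, against 4.72, 4.73, 4.74, 4.74 and 4.63 in WT mice, a difference of 0.15 (95% interval 0.041 to 0.25). The groups stood apart by only 0.0059 and 0.012, and neither was called. Both were dim, with means above 45.5% and 40.6% of probe sets in Nkx2.2-/- mice and 38.5% and 33.7% in WT mice. RMA gives no detection call for any probe set. Of 9 markers of sclerotome, cartilage and muscle, 4 were lower and 5 higher in sign with 0 called, at a mean level of 5.04 to 5.14 in Nkx2.2-/- mice and 4.97 to 5.12 in WT mice.

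Cd93, a lectin-like receptor of endothelium, had 5 probe sets, and the 2 bright ones were lower in mean and narrower in spread in the Nkx2.2-/- mice. Probe set 1419589_at read 5.99, 5.95, 5.83, 5.90 and 5.87 in Nkx2.2-/- mice, against 6.18, 6.43, 6.02, 6.21 and 5.79 in WT mice, a difference of -0.22 (95% interval -0.44 to 0.00056). WT replicate 21 was the lowest of all mice and the other 4 WT mice were above every mutant. Without WT replicate 15 the difference was -0.14. Probe set 1456046_at had a difference of -0.19 (95% interval -0.46 to 0.088), and without WT replicate 15 it was -0.080. Among the dim probe sets, 1441907_s_at was higher in every Nkx2.2-/- mouse by a margin of 0.0035, with a difference of 0.086, and the others were at -0.011 and -0.00038. Of 10 endothelial markers, 7 were lower and 3 higher in sign with 0 called, at a mean level of 5.82 to 6.00 in Nkx2.2-/- mice and 5.87 to 6.14 in WT mice; their part in the Cd93 values was not tested.

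**Figure D2:**
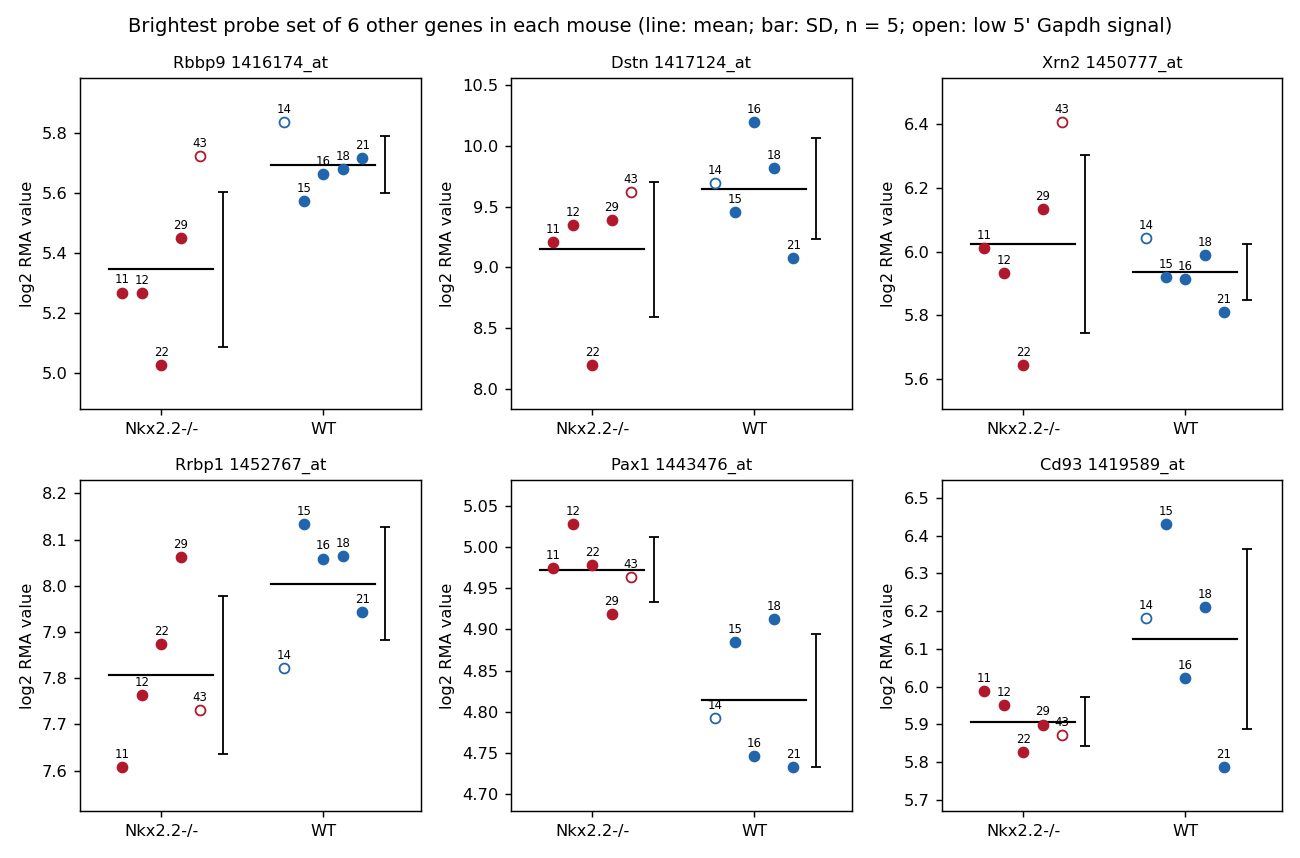
Log2 RMA values of the brightest probe set of Rbbp9, Dstn, Xrn2, Rrbp1, Pax1 and Cd93 in each mouse, labelled by replicate, with Nkx2.2-/- mice left of WT mice, lines at the mean, bars of SD over 5 mice and open symbols for the 2 arrays of low 5 prime Gapdh signal. Of these 6 only Pax1 has groups that do not overlap, and Nkx2.2-/- replicates 22 and 43 mark the lowest and highest mutant in Rbbp9, Dstn and Xrn2.

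Over all 28 probe sets, 17 were lower and 11 higher in sign, where 49.2% of all probe sets were lower in sign, with a median difference of -0.018 against 0.0010 over all probe sets. In 6 of the 28 the groups did not overlap, 2 of them lower (both of Snx5) and 4 higher (both of Pax1, 1 of Rrbp1 and 1 of Cd93), where 0.442% of all probe sets were lower and 0.315% higher without overlap. Since the genes were picked from this contrast, that is a description of the choice. Except for 1417648_s_at, the margins between groups were from 0.0035 to 0.025. Of the 28 probe sets, 13 had a mean level under the median of all probe sets.

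**Figure D3:**
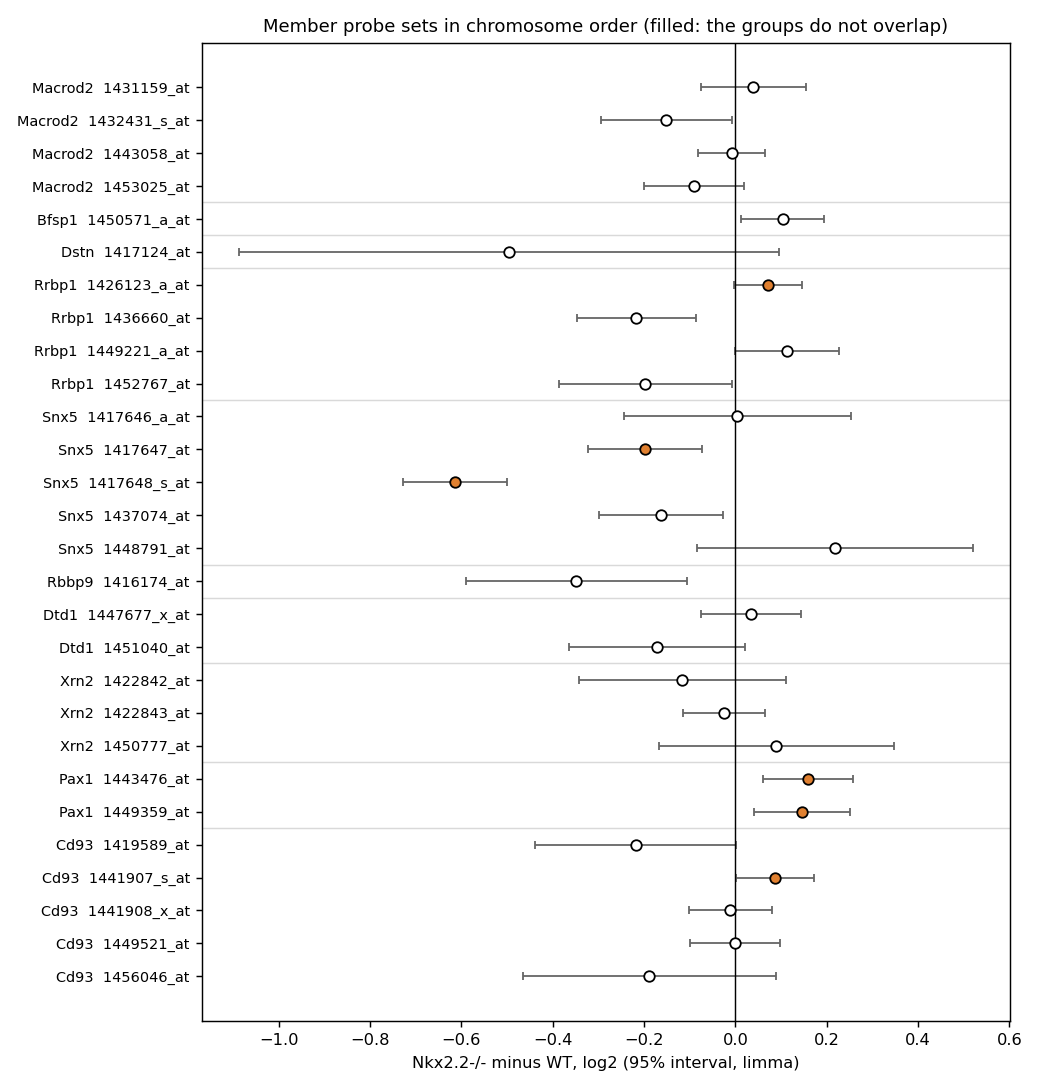
Difference between Nkx2.2-/- and WT mice on the log2 scale for the 28 probe sets, grouped by gene in chromosome order, with 95% intervals from limma and filled points where the 5 Nkx2.2-/- and 5 WT values do not overlap. Snx5 1417648_s_at at -0.61 stands apart from the other probe sets of Snx5, which run from -0.20 to 0.22.

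The genes around Nkx2-2 were compared in the same way. Among the 100 genes that make up the 50 measured genes on each side, Snx5 was the only 1 with a called probe set. Over all 18193 genes, 0.0715% had any probe set called lower and 0% any called higher. Snx5 was chosen from this contrast, and calls among the other genes would be rare at that share, so nothing is read from this count. By their brightest probe sets, 45 of the 90 genes outside the chosen 10 were lower in sign, with a median difference of -0.00016, and over all genes 53.0% were lower with a median of -0.0042. Between Snx5 and Nkx2-2 lie 21 such genes with 34 probe sets, of which 0 were called. An unadjusted limma p under 0.05 was found in 0 of these 34 and in 4 of the 163 probe sets of all 90 genes. It was found in 1545 of the 45037 probe sets on the array and in 11 of the 28 of the chosen 10 genes. Those 10 were picked from this contrast and are left out of the 90 genes, so nothing is read from these shares.

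Insm1, a zinc finger factor of newborn neurons and 5 genes from Nkx2-2, had the lowest of the 90 values, -0.33 (95% interval -1.06 to 0.39), and its dimmer probe set the lowest of all 163, -0.55. Gins1, a subunit of the replicative helicase, was at -0.21 and Ninl, a centrosomal protein, at -0.17. The highest by brightest probe set were Dzank1 at 0.21 (95% interval -0.23 to 0.64), Lamp5, a lysosome-associated membrane protein of neurons, at 0.17 and Mkks, a chaperonin-like protein of the cilium base, at 0.15. None of these 6 was called. Over all 163 probe sets the highest was that of Jag1, a Notch ligand, at 0.27 (95% interval 0.087 to 0.45), which was named after its value was seen and was not called. Of the 163 probe sets, 3 did not overlap between groups, chosen for mention after their values were seen, where 0.757% of all probe sets did not overlap. They were the dimmer ones of Mkks, with a difference of -0.18, and of Mgme1, the mitochondrial exonuclease next to Snx5, with -0.080, and the one of E130215H24Rik, with 0.059. On chromosome 2 as a whole, 3 of 2806 placed probe sets were called, those of Nkx2-2, of Snx5 and of Gchfr, which regulates tetrahydrobiopterin synthesis, stands 259 measured genes away and had a difference of -0.42. Over all chromosomes, 20 of 34741 placed probe sets were called.

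**Figure D4:**
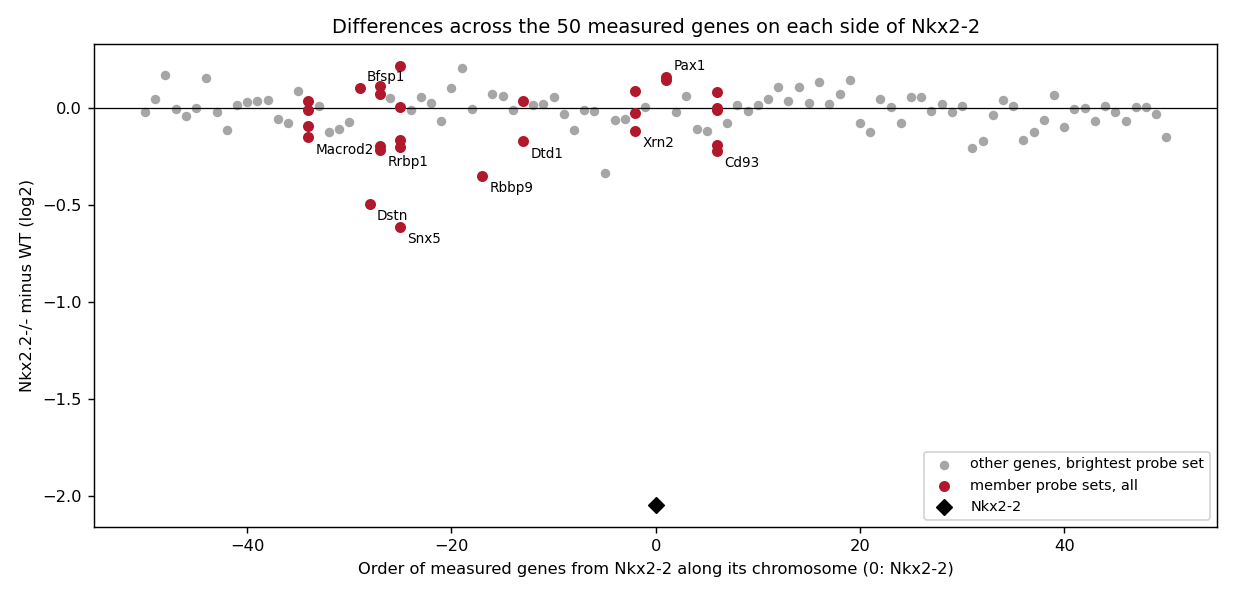
Difference between Nkx2.2-/- and WT mice on the log2 scale against the order of measured genes along the chromosome from Nkx2-2, for the 28 probe sets of the 10 genes, for the brightest probe set of the 90 other genes within 50 genes on each side and for Nkx2-2 at -2.05. Snx5 1417648_s_at reaches -0.61 at 25 genes from Nkx2-2, and the brightest probe sets of the 90 other genes run from -0.33 to 0.21.

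Partners of the 10 genes in their pathways had 0 called genes in either direction in each of 7 lists. Over all 18193 genes, 0.0715% had any probe set called lower and 0% any called higher. Lists this short would rarely hold a call at that share, so nothing is read from these counts. By brightest probe set, 53.0% of all genes were lower in sign, with a median difference of -0.0042. In the sorting nexin and retromer list, 9 of 12 measured genes were lower in sign with a median of -0.035, and the largest values were those of Snx6, the close paralogue of Snx5, at -0.16 (95% interval -0.37 to 0.051) and of Snx27 at 0.11 (95% interval -0.14 to 0.36). Snx1 and Snx2, which pair with Snx5, were at -0.080 and -0.020. In the cofilin and actin turnover list, 7 of 12 were lower with a median of -0.028, Twf2 was at -0.13 and Ssh3, a cofilin phosphatase, at 0.11. Of 9 genes for ribosome binding and translocation at the endoplasmic reticulum, 8 were lower with a median of -0.043, and Sec61a1 and Sec61b of the translocation channel were at -0.14 and -0.12.

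In the list of RNA decay and termination, 5 of 8 were lower with a median of -0.0027, with Xrn1, the cytoplasmic counterpart of Xrn2, at 0.093 and Edc4 at 0.067. Of 8 genes of ADP-ribose metabolism, 6 were lower with a median of -0.021, and Oard1 and Parp1 were both at -0.18. Of 5 genes related to Cd93, 3 were lower with a median of -0.018, C1qa was at -0.21 (95% interval -1.01 to 0.58) and Thbd, which also neighbours Cd93, at -0.12. Of 5 paired box genes, 2 were lower with a median of 0.0094, Pax8 was at 0.21 and Pax7 at -0.15. None of the genes in these 7 lists was called.

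The probe sets whose profile over the 10 arrays was most like that of Snx5 1417648_s_at were ranked by correlation. The 5 nearest outside the chosen genes were those of Tph2, the serotonin-synthesising hydroxylase, at 0.97, of Mbp, myelin basic protein, at 0.96, of Nkx2-2 at 0.96 and of Mbp again at 0.95 and 0.95. All were lower in mean in Nkx2.2-/- mice. The Snx5 probe set was taken for its difference between genotypes, so probe sets that differ in the same direction rank first by construction. Nothing is read from the ranking. Of these 5 probe sets, 2 were still among the 5 nearest without Nkx2.2-/- replicate 43 and WT replicate 14 together, and 3 without Nkx2.2-/- replicate 11 or without WT replicate 14, 16 or 18 alone. With each genotype's mean taken out, the correlations over the same 10 arrays were 0.52 for Tph2, -0.068 for Nkx2-2 and 0.089, 0.19 and 0.026 for Mbp.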

How the data were processed

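Per the submitters' processing notes, the deposited log2 expression values were made by the authors with RMA, which corrects background, quantile-normalizes and gives 1 value per probe set. Its version and the build behind the probes are not given in the sources used here. This method draws all arrays to 1 distribution and compresses differences of dim probe sets. Per the labels' protocols, RNA was extracted with TRIzol and labelled as biotinylated cRNA. Groups came from the sample titles.

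Of 45101 probe sets, 64 controls were left out. The platform annotation gave 34945 of the other 45037 a single symbol, 932 several and 9160 none. The fit over all of them used limma 3.58.1 (functions lmFit and eBayes; R 4.3.3), with no covariate and no filter, and Benjamini-Hochberg adjustment over all of them at 0.05. The fit was tested on simulated data. The RefSeq table of GRCm38.p6, matched by Entrez number, gave gene order only. Promoters were taken from RefSeq. Plots were drawn in matplotlib 3.10.9, with pandas 2.3.3 on Python 3.11.15.

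The genes, lists, tests and alternatives were chosen with earlier results of these data known. Named were the 10 genes, Nkx2-2, called neighbours and list members, the 3 highest and 3 lowest neighbours, the 2 largest values of each pathway list, the 5 most similar probe sets and called ones on the same chromosome. The other genes named, such as Snx1 and Snx2, were chosen after their values were seen. Alternatives changed the normalization, the filters on dim or shared probe sets, the prior, the array weights, the threshold and the window, and left out each array in turn. Listed genes that no probe set matched by a single symbol were not analysed here. The number of arrays limits the precision. Which mice shared a litter is not given here, so p-values treat the mice as independent and litter could not be taken into account.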

Additional observations from a re-analysis of the deposited data

Results flagged for a closer look

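In 58 groups of 5 values (the 28 probe sets and that of Nkx2-2, in each genotype), a single mouse stood apart in 3 by Dixon's test at its 95% critical value of 0.71, where chance gives about 1 in 20 groups, or 2.9. Dstn 1417124_at was 8.19 in Nkx2.2-/- replicate 22, with the other mutants between 9.21 and 9.62, and the difference between genotypes was -0.50 with that mouse and -0.26 without it. Pax1 1449359_at was 4.63 in WT replicate 21, with the other WT mice between 4.72 and 4.74, and the difference was 0.15 with it and 0.13 without it. Nkx2-2 was 6.88 in WT replicate 14, one of the arrays of low 5 prime Gapdh signal, with the other WT mice between 6.42 and 6.51, and the difference was -2.05 with it and -1.97 without it.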

How the results depend on the processing

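All 454 recomputed differences of the 28 probe sets moved by less than the spread between replicates, but many of them could not do otherwise. Filters on probe sets and a changed prior leave a difference as it was. Leaving out 1 array per group shifts a group mean by only part of that spread. Nothing is read from the comparison in these settings, which leaves the changed normalizations and the array weights. In each setting run on them, 22 probe sets kept their sign. The 6 others, Snx5 1417646_a_at among them, had 17 changes of sign. All 6 had small differences and none was called. Snx5 1417648_s_at was retained in 16 settings, lay between -0.64 and -0.58 and was called in each. Since Snx5 was chosen from this contrast, nothing is read from those calls. Leaving out probe sets ending in _x_at, _s_at or _a_at removes it, after which 13 probe sets in all were called, 0 of those of the 10 genes, and 0 of 92 neighbour genes. With 1 probe set per gene, the brightest, 11 genes were called and again 0 of the 10, since 1448791_at then stands for Snx5. Within 10 genes on each side of Nkx2-2, which does not reach Snx5, 0 were called. Without the dimmer probe sets 10 of 15 were lower in sign, against 17 of 28. Counts of calls by the other settings, leaving out each array included, stayed within 1.5 times of the reported ones. No paired analysis was possible because no label pairs an Nkx2.2-/- mouse with a WT mouse. Arrays of this kind limit what is seen at low signal.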
